A study of Mus musculus with 16 samples.

Results

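Mitochondrial genome transcripts were followed across 16 RNA-seq libraries of the mouse suprarenal aorta, the stretch of abdominal aorta above the renal arteries. They were chosen by name alone, as the rows of the count table whose gene symbol begins with mt-. This gave 35 of 29695 rows, made up of 13 mRNAs, 2 rRNAs and 20 tRNAs. The mitochondrial genome carries 37 genes in the GENCODE M21 annotation. Of the remaining genes, mt-Tf had no row, and mt-Td had a row without a symbol that held 6 reads in all.

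All mice were male and carried a subcutaneous osmotic minipump for 5 days. Wild-type C57BL/6 mice (WT) and Vamp8-/- mice (KO), which lack a SNARE protein of vesicle fusion, each received saline or angiotensin II (AngII, a vasoconstrictor peptide) at 1000 ng/kg/min. Each of the 4 groups, WT saline, WT AngII, KO saline and KO AngII, held 4 libraries labelled as biological replicates. Aortae with bleeding in the wall or overt pathology had been left out by the submitters, so AngII values describe vessels without them. The vessels had been perfused and cleared of the tissue around them. Whether KO and WT mice were littermates is unknown here.

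Mitochondrial DNA is transcribed from both strands into long transcripts that span many genes. The tRNAs lie between most of the mRNAs and rRNAs, and cutting at their ends releases the single RNAs. The mRNAs encode core subunits of the respiratory chain: complex I takes electrons from NADH, complex III passes them to cytochrome c, complex IV hands them to oxygen, and complex V makes ATP. All other subunits, and every protein that copies, reads or translates mitochondrial DNA, are encoded in the nucleus. In the artery wall, mitochondria supply ATP to contracting smooth muscle, and they are dense in brown fat, which surrounds part of the aorta.

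Several mitochondrial mRNAs end without a full stop codon in the DNA, and the poly(A) tail completes it. The libraries were made by poly-A enrichment, so this tail is also what captures those mRNAs that carry one. The last 30 bases of 4 mRNAs are shown for this reason (GENCODE M21, GRCm38, 5′ to 3′, coding strand), with the final bases of the reading frame in capitals.
mt-Co3: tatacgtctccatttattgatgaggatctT
mt-Nd4: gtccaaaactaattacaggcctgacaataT
mt-Cytb: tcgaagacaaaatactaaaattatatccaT
mt-Co1: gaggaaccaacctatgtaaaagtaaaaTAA
The frames of mt-Co3, mt-Nd4 and mt-Cytb end on a lone T, whereas mt-Co1 has a complete TAA.

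The second set of sequences bears on how far the counts can be trusted. In the GRCm38 annotation 11 nuclear pseudogenes matched a mitochondrial mRNA at 95% identity or more, once any match on a single further chromosome had been left out. Those kept lie on chromosomes 1, 2 and 13. All 11 had rows in the count table. On chromosome 1, 7 of them stand as a run of neighbours. The first 60 bases of 2 mitochondrial genes and their copies are printed with the start codon in capitals.
mt-Atp6: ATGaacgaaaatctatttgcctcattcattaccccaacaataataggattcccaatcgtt
Gm10925: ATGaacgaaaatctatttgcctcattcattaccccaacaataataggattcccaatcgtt
mt-Co3: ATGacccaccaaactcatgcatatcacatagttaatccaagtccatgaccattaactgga
Gm28437: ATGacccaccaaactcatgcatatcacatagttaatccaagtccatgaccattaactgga
Gm10925 matched mt-Atp6 over 678 of its 681 bases and Gm28437 matched mt-Co3 over 783 of 784, both with no mismatch. Gm28661 matched mt-Co2 over 681 of 684 bases and Gm10222 matched mt-Nd4l over 294 of 297, again with none. For 2 further pairs a single base differed, and it is in capitals in the windows below.
mt-Nd3: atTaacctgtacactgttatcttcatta
Gm28438: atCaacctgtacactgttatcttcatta
mt-Co1: ggaAttgttttatccaactcatcccttga
Gm29216: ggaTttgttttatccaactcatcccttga
Counted from the first base of the mitochondrial gene, the change is T3C in Gm28438, over 345 aligned bases, and A1066T in Gm29216, over 483 of the 1545 bases of mt-Co1. The handling of reads that fit both places was not given in the sources used here, and counts of such pairs are uncertain.

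Library totals ran from 13284804 to 21643548 reads. Vamp8, read in every library as the check of the knockout, stood at 45.9 to 60.9 CPM (reads per 1000000 after edgeR's TMM scaling) in the 8 WT libraries. In KO AngII it was 26.7, 24.6, 26.0 and 14.1 CPM in replicates 1 to 4. In KO saline it was 53.3, 31.4, 26.3 and 24.9 CPM. The library labelled KO saline replicate 1 therefore lay in the WT range on this scale. Per 1000000 total reads it held 38.2 Vamp8 reads, below every WT library (at least 51.0) and above every other KO library (at most 27.8). The markers of smooth muscle, the defining cell of the tissue, were present in all libraries. KO AngII replicate 4 stood apart by its markers of neurons and chromaffin cells, 2495 CPM in sum against 169 or less elsewhere. Calls and medians are given with and without these 2 libraries. All 2725 rows without a symbol held 0 reads in the 8 WT libraries, so a difference in counting between the genotypes cannot be told apart from genotype.

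Mitochondrial genes took the largest share of reads in KO saline. Replicates 1 to 4 held 32.8, 31.2, 27.0 and 31.2% mitochondrial reads there, against 13.5, 17.7, 14.2 and 8.33% in WT saline. In KO AngII the shares were 24.3, 17, 13 and 10.1%, and in WT AngII they were 13.7, 16.3, 10.7 and 9.56%. Every KO saline library lay above all 12 others, and the other groups overlapped. Set against nuclear reads, KO saline held 2.92-fold more mitochondrial reads than WT saline (log2 difference 1.55), and KO AngII held 0.416 times those of KO saline (-1.27). Each of these differences reached the smallest p that 4 against 4 libraries allow (exact permutation p = 0.0286, 0.0571 after Benjamini-Hochberg adjustment over 4 comparisons), so neither passed after adjustment. WT AngII and WT saline differed by -0.09 on the same log2 scale (exact permutation p = 0.829, adjusted p = 0.829), and KO AngII and WT AngII by 0.38 (p = 0.4, adjusted p = 0.533).

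**Figure D1:**
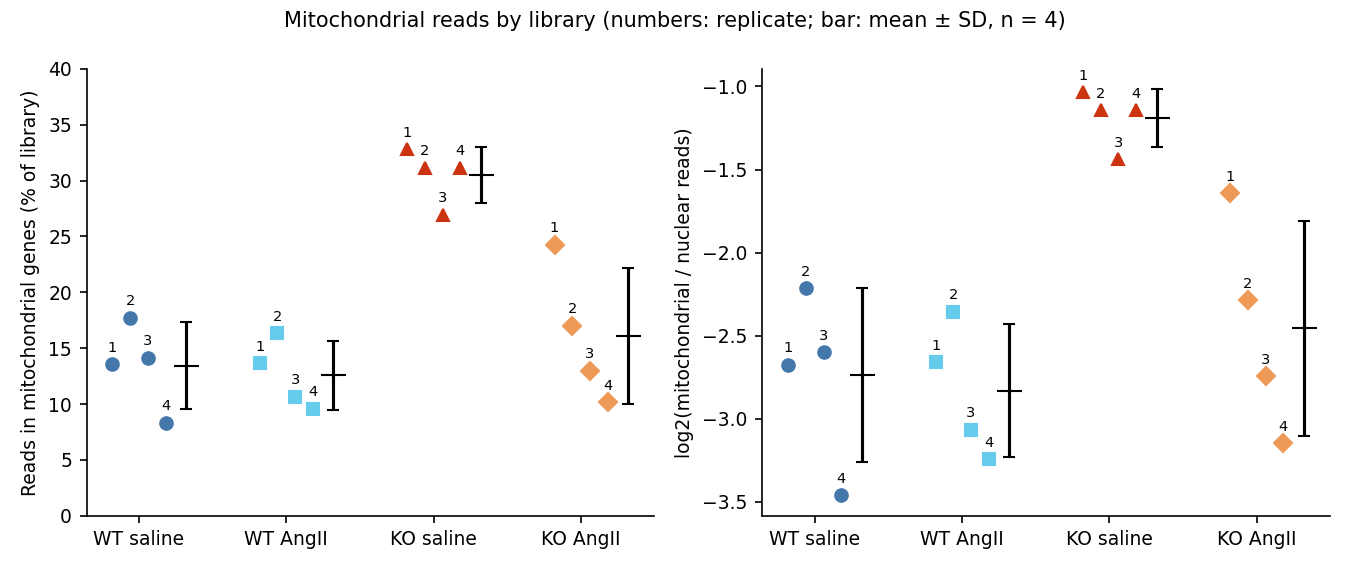
Share of reads in mitochondrial genes (left, % of library) and log2 ratio of mitochondrial to nuclear reads (right) in 16 libraries, with the replicate number at each point and bars for mean ± SD (n = 4). The 4 KO saline libraries lie between 27.0 and 32.8%, above all others.

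The difference between genotypes in the AngII effect was set against all 4900 arrangements of genotype labels within infusion. These arrangements assume no genotype difference at either infusion. Their p-values therefore cannot decide whether the AngII effect alone depended on genotype. On the log2 ratio scale the AngII effect in KO was lower than that in WT by 1.17, with an exact permutation p = 0.118, which did not pass. As a share of reads the difference of effects was -13.5 percentage points (exact permutation p = 0.0788). The nuclear reads alone did not pass in any of the 4 comparisons (exact permutation p from 0.114 to 0.829). In bulk tissue, fewer cells of a type and less RNA per cell cannot be told apart, and this holds for every level below. Without KO saline replicate 1 the share in KO saline still exceeded that of WT saline by 16.3 percentage points (exact permutation p = 0.0571, the smallest that 3 against 4 allow). Without both libraries named above, KO AngII lay 11.7 percentage points below KO saline (difference -11.7, exact permutation p = 0.1, the smallest for 3 against 3).

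The reads counted on the 13 mRNA genes differed widely per gene length. On the scale of CPM per kilobase of gene, averaged over 16 libraries, mt-Co1 (the catalytic subunit of complex IV) led with 40254. It was followed by mt-Cytb (cytochrome b of complex III) with 30821, mt-Nd1 with 24352, mt-Nd2 with 16994 and mt-Nd4 with 12865, all core subunits of complex I. mt-Co1 exceeded mt-Cytb in 15 of 16 libraries, and each of the next steps down to mt-Nd5 (8453) held in 16 of 16. mt-Nd5 and mt-Nd6 (8163) were ordered this way in 14 of 16. The next 3 genes, mt-Co2 (4584), mt-Atp6 (4517) and mt-Co3 (4423), did not differ beyond their spread, with mt-Co2 above mt-Atp6 in 8 of 16 libraries and mt-Atp6 above mt-Co3 in 8 of 16. Then came the 12S rRNA mt-Rnr1 (2426), the 16S rRNA mt-Rnr2 (1992), mt-Nd3 (1174) and mt-Nd4l (679). mt-Atp8, a short gene that shares 43 of its 204 bases with mt-Atp6, was last with 38.2. mt-Nd4l likewise shares 7 of its 297 bases with mt-Nd4. How reads in shared bases were assigned is unknown here. The values of such overlapping genes are reads assigned to a gene and may not be levels of separate RNAs. Mitochondrial rRNAs carry only short A tails, so a poly-A library holds an unknown part of them.

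**Figure D2:**
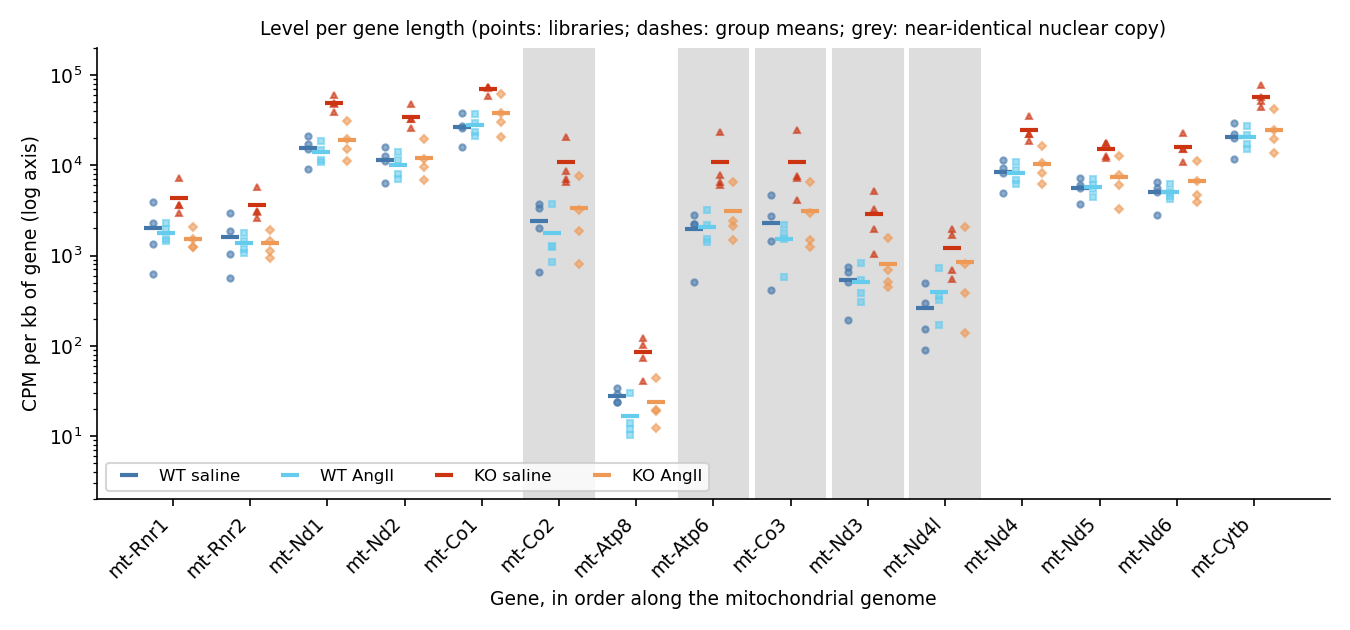
CPM per kilobase of gene (log axis) for the 13 mRNAs and 2 rRNAs in their order along the mitochondrial genome, with points for libraries and dashes for group means. Grey marks the 5 mRNAs with a near-identical nuclear copy over almost their whole length; mean levels run from 38.2 (mt-Atp8) to 40254 (mt-Co1).

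The 5 mRNAs that a nuclear copy covers over more than 90% of their length at 99% identity or more (mt-Co2, mt-Atp6, mt-Co3, mt-Nd3 and mt-Nd4l) were the most variable. Their highest library exceeded their lowest by 22.7-fold to 58.5-fold (median 31.6), against 4.59-fold to 12.1-fold (median 6.86) for the other 8 mRNAs. As shares of mitochondrial reads they varied with a coefficient of variation of 45.4 to 60.7%, against 3.49 to 41.7% for the others. Within a pair, the copy took from 24.6 to 46.5% of reads for mt-Atp6 and Gm10925. The range was 12.7 to 45.2% for mt-Co3 and Gm28437, 13.7 to 49.5% for mt-Co2 and Gm28661, 15.8 to 55.9% for mt-Nd4l and Gm10222, and 12.6 to 45.3% for mt-Nd3 and Gm28438. Partial copies took less: 1.51 to 3.91% for Gm28439, which matches 876 of the 1378 bases of mt-Nd4, and 0.453 to 3.02% for Gm29216. The 4 copies at 95.2 to 97.6% identity took at most 0.19%. Adding the copies' reads raised mt-Co3 from 4417 to 6065 CPM per kilobase, still below mt-Nd5, and its highest library still exceeded its lowest by 44.6-fold. With copies added the same ratio was 24.4-fold for mt-Co2, 37.6-fold for mt-Atp6 and 34.4-fold for mt-Nd3. For mt-Nd4l it went from 22.7-fold to 12.2-fold, near the highest of the other 8 mRNAs.

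**Figure D3:**
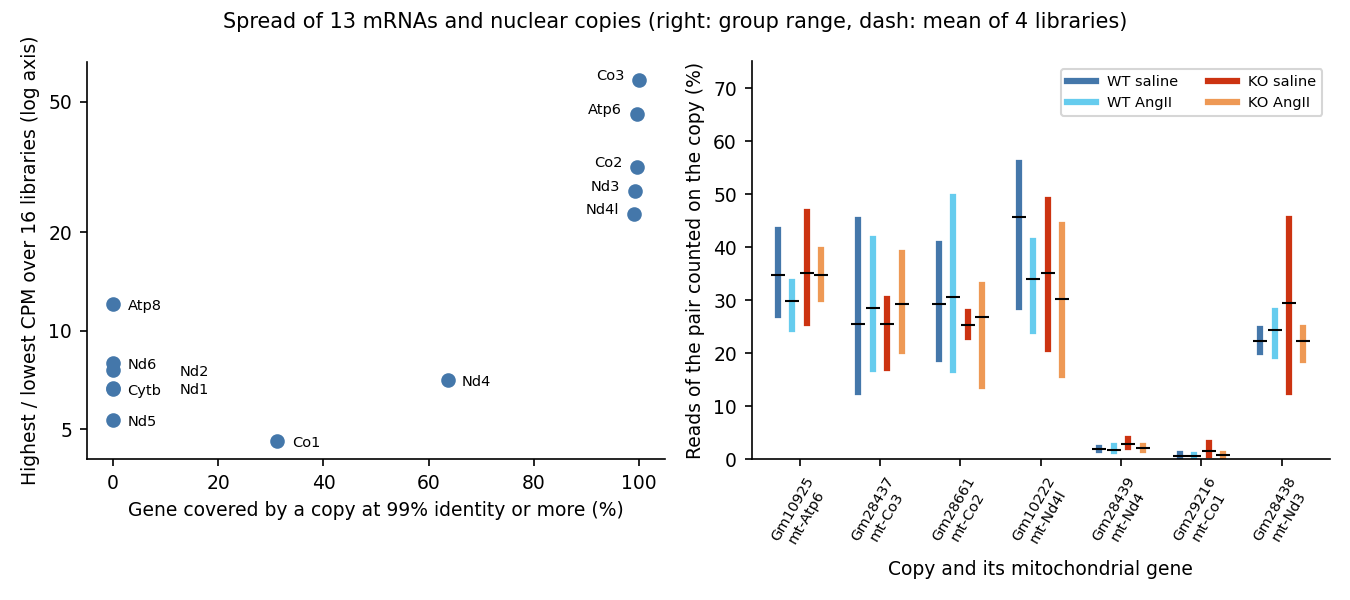
Left, ratio of highest to lowest CPM over 16 libraries (log axis) against the percent of each mRNA that a nuclear copy covers at 99% identity or more; the 5 almost fully covered genes lie at 22.7 and above. Right, percent of a pair's reads counted on the nuclear copy, as the range of 4 libraries per group with the mean as a dash; fully matching copies reach 45.2 to 55.9%.

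KO saline against WT saline asked what the knockout does without AngII. All 31 mitochondrial genes with enough reads to be tested had higher estimates in KO saline, with a median log2 fold change of 1.43 against 0.05 over all 15984 genes tested. At an adjusted p under 0.05 (edgeR quasi-likelihood test, Benjamini-Hochberg over all genes tested) 8 of the 31 rose: mt-Nd1, mt-Nd2, mt-Nd3, mt-Nd4, mt-Nd6, mt-Atp6, mt-Tp and mt-Ts1. Over all genes 1.23% were called higher. At an unadjusted p under 0.05 it was 27 of 31, where 10.1% of all genes were higher. KO saline and WT saline libraries did not overlap for 18 of the 31, all higher in KO saline, beside 5.17% of all genes. The 4 tRNAs that fell under the filter on low counts (mt-Tv, mt-Ta, mt-Tk and mt-Tt) held at most 15 reads in any library.

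Complex I, the entry point for electrons from NADH, has 7 mitochondrial subunits, and 5 of them rose. In what follows the values of a group are in order of replicates 1 to 4. For mt-Nd1 (ENSMUSG00000064341) the libraries held 14531, 20226, 16465 and 8628 CPM in WT saline, 14287, 17554, 10834 and 10323 in WT AngII, 57558, 45202, 36845 and 46750 in KO saline, and 29584, 18696, 14624 and 10776 in KO AngII. For mt-Nd2 (ENSMUSG00000064345) they held 11438, 16601, 13068 and 6512 CPM in WT saline, 11751, 14557, 8329 and 7334 in WT AngII, 49345, 33311, 26867 and 33343 in KO saline, and 20512, 12182, 9997 and 7095 in KO AngII. KO saline lay above each of the other groups without overlap for both genes. mt-Nd1 rose 3.11-fold in KO saline over WT saline (log2 1.64, SE 0.38, edgeR adjusted p = 0.0334), and mt-Nd2 rose 3.00-fold (1.59, SE 0.40, adjusted p = 0.0460). Next in the same complex, values of mt-Nd4 (ENSMUSG00000064363) were 11412, 15562, 12849 and 6821 CPM in WT saline, 12149, 14929, 9567 and 8488 in WT AngII, 48109, 30297, 25634 and 30810 in KO saline, and 22601, 14578, 11357 and 8480 in KO AngII. It rose 2.89-fold (1.53, SE 0.38, edgeR adjusted p = 0.0416), again with no overlap between KO saline and WT saline.

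mt-Nd5 and mt-Nd4l, also of complex I, did not pass. mt-Nd5 stood at 10268, 13295, 11000 and 6738 CPM in WT saline, 10889, 12690, 10062 and 8037 in WT AngII, 22181, 31889, 23241 and 32295 in KO saline, and 22908, 14033, 11130 and 6043 in KO AngII. KO saline replicate 1, the highest library for most members, was the lowest of its group here. The log2 difference of mt-Nd5 was 1.41 (SE 0.37, edgeR adjusted p = 0.0558). mt-Nd4l, one of the copied genes, stood at 46.0, 147, 89.0 and 26.8 CPM in WT saline, 105, 218, 94.3 and 49.8 in WT AngII, 204, 577, 164 and 507 in KO saline, and 607, 237, 115 and 41.3 in KO AngII. Its estimate of 2.23 had an SE of 0.75 (edgeR adjusted p = 0.113). mt-Nd3 (ENSMUSG00000064360), also copied, held 177, 230, 263 and 66.8 CPM in WT saline, 184, 291, 107 and 133 in WT AngII, 1785, 1145, 685 and 357 in KO saline, and 542, 242, 156 and 175 in KO AngII. It rose 5.40-fold (2.43, SE 0.56, edgeR adjusted p = 0.0325). Its KO saline libraries were the most spread of the group's complex I genes called, from 357 to 1785 CPM.

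mt-Nd6 (ENSMUSG00000064368) is the one mRNA of the light-strand transcript. It held 2633, 3383, 2924 and 1471 CPM in WT saline, 2615, 3243, 2384 and 2196 in WT AngII, 11693, 7869, 5682 and 7917 in KO saline, and 5800, 3474, 2456 and 2051 in KO AngII. It rose 3.19-fold (log2 1.67, SE 0.35, edgeR adjusted p = 0.0232), the smallest adjusted p among the 31. Reads of mt-Nd6 and antisense reads from the opposite transcript cannot be told apart, because no strand setting of the counting is known here. Whether the mt-Nd6 mRNA carries a poly(A) tail was not tested either, so the part of it that a poly-A library holds is unknown. As a share of mitochondrial reads mt-Nd6 was 2.08% ± 0.13 (WT) and 2.27% ± 0.22 (KO) after saline, and 2.17% ± 0.20 (WT) and 2.16% ± 0.16 (KO) after AngII (SD, n = 4).

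mt-Cytb, the only mitochondrial subunit of complex III, did not pass in KO saline against WT saline. Its libraries held 22897, 33393, 25143 and 13252 CPM in WT saline, 24622, 31497, 19625 and 17187 in WT AngII, 87989, 64594, 50810 and 59463 in KO saline, and 47772, 28263, 22130 and 15504 in KO AngII. KO saline lay above all others, and the log2 difference from WT saline was 1.47 (SE 0.41, edgeR adjusted p = 0.0661). It was the steadiest mRNA relative to the other mitochondrial genes, with a coefficient of variation of 3.49% in its share of mitochondrial reads.

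Complex IV, cytochrome c oxidase, has 3 mitochondrial subunits, and none passed. mt-Co1 stood at 40313, 58419, 41696 and 24712 CPM in WT saline, 45500, 56405, 35937 and 32805 in WT AngII, 113446, 112712, 89959 and 112014 in KO saline, and 94135, 58757, 46601 and 31666 in KO AngII. WT saline and KO saline did not overlap, at a log2 difference of 1.37 (SE 0.41, edgeR adjusted p = 0.0810). mt-Co2 stood at 1387, 2528, 2268 and 450 CPM in WT saline, 867, 2522, 583 and 851 in WT AngII, 14210, 5911, 4476 and 4850 in KO saline, and 5234, 2192, 1285 and 557 in KO AngII. mt-Co3 stood at 2120, 3668, 1121 and 327 CPM in WT saline, 1697, 1395, 455 and 1193 in WT AngII, 19157, 5891, 3214 and 5590 in KO saline, and 5170, 2336, 1174 and 976 in KO AngII. Both are copied genes whose highest value came from KO saline replicate 1. Their log2 differences were 2.15 (SE 0.70, edgeR adjusted p = 0.106) and 2.23 (SE 0.75, adjusted p = 0.115).

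Complex V, the ATP synthase, has 2. mt-Atp6 (ENSMUSG00000064357), part of its proton channel, held 1513, 1928, 1523 and 342 CPM in WT saline, 1493, 2199, 971 and 1034 in WT AngII, 15753, 4494, 5350 and 4074 in KO saline, and 4452, 1651, 1436 and 1006 in KO AngII. It rose 5.59-fold (log2 2.48, SE 0.61, edgeR adjusted p = 0.0424). mt-Atp8 held 5.97, 6.98, 4.89 and 4.81 CPM in WT saline, 6.18, 2.87, 2.07 and 2.44 in WT AngII, 21, 25, 14.8 and 8.26 in KO saline, and 8.95, 3.98, 3.83 and 2.51 in KO AngII. Its log2 difference of 1.61 (SE 0.43, edgeR adjusted p = 0.0558) did not pass, though the groups did not overlap.

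The rRNAs, which form the core of the mitochondrial ribosome, did not pass and overlapped between KO saline and WT saline. mt-Rnr1 stood at 1296, 3701, 2190 and 595 CPM in WT saline, 1864, 2163, 1447 and 1367 in WT AngII, 6891, 3433, 3484 and 2818 in KO saline, and 1964, 1460, 1200 and 1190 in KO AngII. mt-Rnr2 stood at 1650, 4655, 2950 and 897 CPM in WT saline, 2309, 2804, 1851 and 1704 in WT AngII, 9183, 4754, 4896 and 4162 in KO saline, and 3050, 2296, 1776 and 1494 in KO AngII. WT saline replicate 2 reached into the KO saline range for both. Their log2 differences were 1.10 (SE 0.44, edgeR adjusted p = 0.173) and 1.18 (SE 0.43, adjusted p = 0.140).

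The tRNAs made up 0.199% of all mitochondrial reads, and mt-Tp alone held 66.6% of the tRNA reads. The 3 with the most reads are printed with the anticodon in capitals, since each stands for the short genes whose reads may come from longer precursors.
mt-Tp: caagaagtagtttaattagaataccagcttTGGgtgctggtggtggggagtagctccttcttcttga
mt-Tl2: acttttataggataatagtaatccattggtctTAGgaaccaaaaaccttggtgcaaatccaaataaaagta
mt-Tc: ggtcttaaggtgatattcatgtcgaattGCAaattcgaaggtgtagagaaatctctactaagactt
mt-Tp (ENSMUSG00000064372), the proline tRNA, held 153, 255, 159 and 73.7 CPM in WT saline, 199, 197, 118 and 122 in WT AngII, 639, 471, 430 and 388 in KO saline, and 319, 241, 188 and 120 in KO AngII. It rose 3.01-fold (log2 1.59, SE 0.35, edgeR adjusted p = 0.0293), and KO saline lay above every other library. mt-Tl2, a leucine tRNA, held 6.81 to 29.7 CPM in WT saline and 29.7 to 63.9 in KO saline (1.48, SE 0.40, adjusted p = 0.0607). mt-Tc, the cysteine tRNA, held 7.63 to 32.2 CPM in WT saline and 27.0 to 38.1 in KO saline, with overlap (0.95, SE 0.44, adjusted p = 0.225). mt-Ts1 (ENSMUSG00000064352), a serine tRNA, rose 5.24-fold (2.39, SE 0.51, edgeR adjusted p = 0.0248) on only 2 to 41 reads per library. The 16 tested tRNAs had log2 differences from 0.57 to 2.39, and 6 of them did not overlap between the groups. Of the 8 tested genes of the light-strand transcript, 3 were called (mt-Nd6, mt-Tp and mt-Ts1). Among the 23 tested genes of the heavy-strand transcript, mt-Nd1, mt-Nd2, mt-Nd3, mt-Nd4 and mt-Atp6 were called. The share of all genes called higher was 1.23%.

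**Figure D4:**
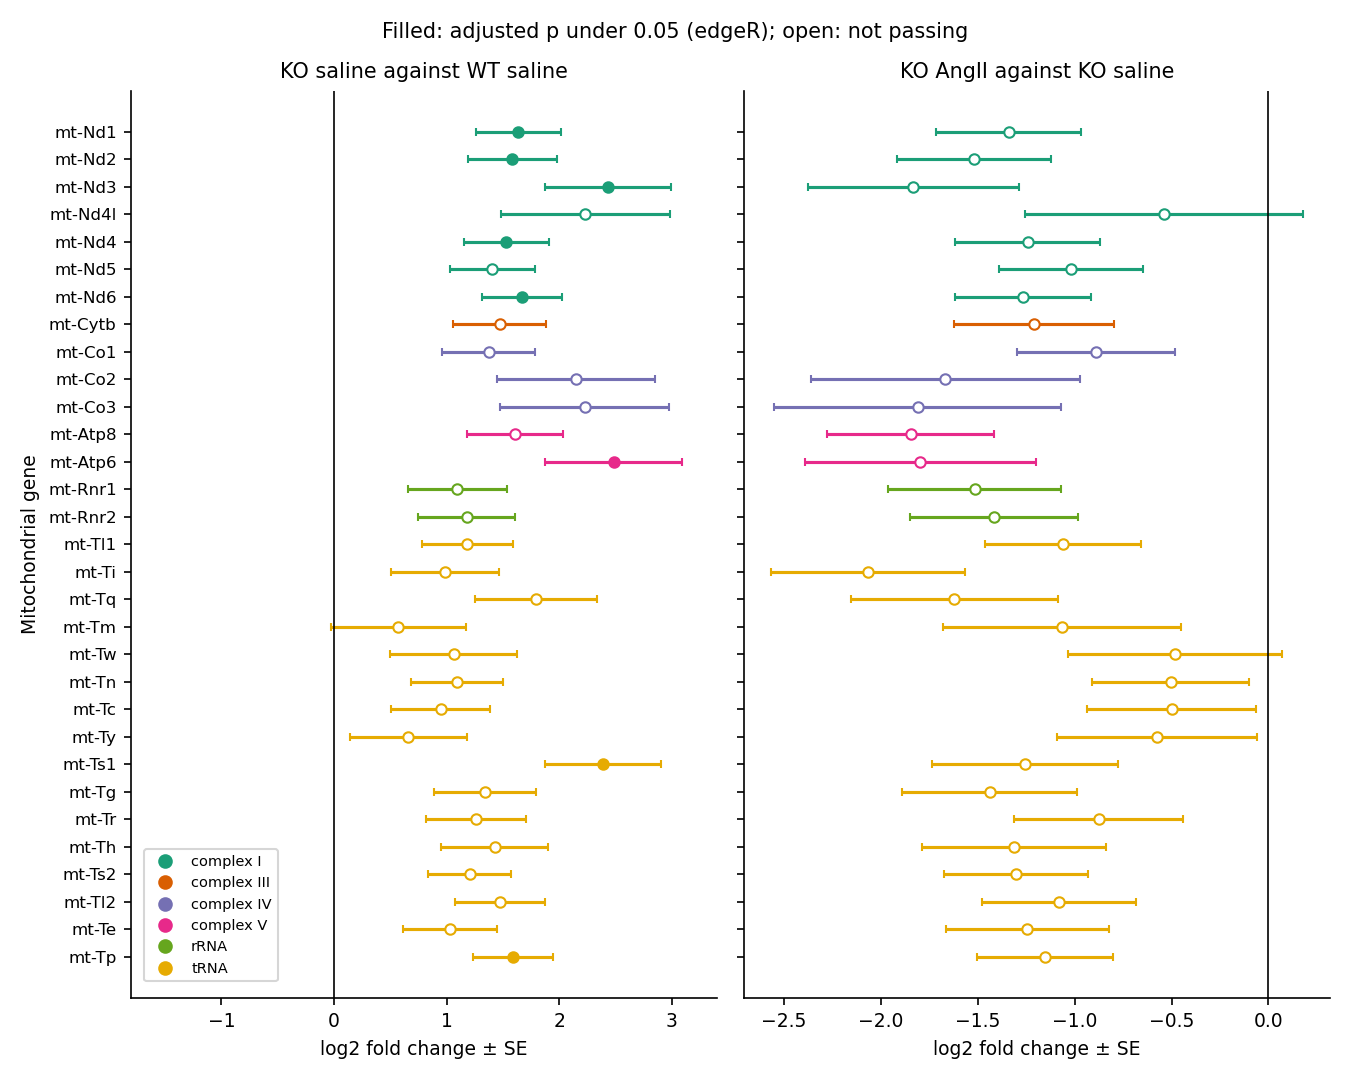
log2 fold change ± SE of the 31 tested mitochondrial genes for KO saline against WT saline (left) and KO AngII against KO saline (right), from edgeR, coloured by role. All 31 estimates are above 0 on the left, with 8 filled as called, and all 31 are below 0 on the right, with none called.

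The 5 copied mRNAs had the largest log2 fold changes of the 13, 2.15 to 2.48 with SEs of 0.56 to 0.75, against 1.37 to 1.67 with SEs of 0.35 to 0.43 for the other 8. Without the library labelled KO saline replicate 1 these ranges were 1.39 to 2.39 and 1.26 to 1.48. The rows of the copies are not separate evidence, since reads of the matching mitochondrial genes may be counted on them. Of these rows 9 of the 10 tested were called higher in KO saline than in WT saline, beside 1.23% of all genes. Their log2 fold changes were 1.58 to 3.06 over all 10. Gm28437 was the exception (2.92, SE 0.80, edgeR adjusted p = 0.0607). When each mitochondrial gene was summed with its copies, 8 of the 31 were again called. The share of all genes called in that fit is not given here, so this count stands without a background.

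The count of 8 rested on few libraries and on the tool. Without KO saline replicate 1 no member was called, beside 0.564% of all genes called higher, and the members' median log2 fold change was 1.26. None was called either without KO saline replicate 2 (0.508% of all genes, members' median 1.35) or without WT saline replicate 1 (0.342%, 1.46), 3 (0.380%, 1.41) or 4 (0.400%, 1.22). In these fits the calls over all genes also became fewer. The count was 2 without KO saline replicate 3 (0.632% of all genes), 4 without KO saline replicate 4 (0.588%) and 5 without KO AngII replicate 2 (0.904%). It was 14 without KO AngII replicate 4 (1.86%) and 26 without WT saline replicate 2 (4.5%). Without both KO saline replicate 1 and KO AngII replicate 4 it was 4 (1.14%), with a median of 1.30. DESeq2 called 20 of the 31 higher (3.0% of all genes) and limma voom with library weights called 30 (9.6%).

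KO AngII against KO saline asked what AngII does in the knockout. All 31 members had lower estimates in KO AngII, with a median log2 fold change of -1.26 against 0.02 over all genes tested, but none was called by edgeR at an adjusted p under 0.05, where 0.0501% of all genes were called lower. At an unadjusted p under 0.05 it was 24 of 31, beside 7.39% of all genes lower. DESeq2 called 15 of the 31 lower (1.57% of all genes) and limma voom called 8 (1.63%). The groups did not overlap for 15 members, all lower in KO AngII, beside 3.52% of all genes: 4 mRNAs (mt-Nd1, mt-Nd2, mt-Nd4 and mt-Cytb), both rRNAs and 9 tRNAs. KO AngII replicate 1 was the highest of its group for every mRNA and reached into the KO saline range for 9 of the 13.

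Among the mRNAs the estimates ran from -0.54 for mt-Nd4l (SE 0.72, edgeR adjusted p = 0.688) to -1.85 for mt-Atp8 (SE 0.43, adjusted p = 0.106). mt-Nd2 was at -1.52 (SE 0.40, edgeR adjusted p = 0.121), mt-Nd6 at -1.27 (SE 0.35, adjusted p = 0.129) and mt-Co1 at -0.89 (SE 0.41, adjusted p = 0.253). The rRNAs mt-Rnr1 and mt-Rnr2 were at -1.52 (SE 0.45, edgeR adjusted p = 0.140) and -1.42 (SE 0.43, adjusted p = 0.147). The lowest estimate of all was that of the isoleucine tRNA mt-Ti, -2.07 (SE 0.50, edgeR adjusted p = 0.107). Without KO AngII replicate 1, 1 member, mt-Atp8, was called lower (-2.32, edgeR adjusted p = 0.0463). Without both KO saline replicate 1 and KO AngII replicate 4 the median was -0.87, none was called and 13 of 31 had an unadjusted p under 0.05. The shares of all genes in these fits are not given here, so their counts stand without a background.

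AngII in WT left no member called by edgeR, DESeq2 or limma voom, beside 0.444, 1.75 and 1.59% of all genes. None of the 31 had an unadjusted p under 0.05 by edgeR, beside 8.8% of all genes. Of the estimates 14 were positive, and the median log2 fold change was -0.02 against -0.01 over all genes. KO AngII against WT AngII left none called by edgeR, DESeq2 or limma voom, beside 2.03, 7.7 and 3.63% of all genes. By edgeR 1 of 31 had an unadjusted p under 0.05, beside 17.9%. Its median was 0.32, with 22 positive estimates that included all 13 mRNAs. This direction rested on 1 library: without KO AngII replicate 1 the median was -0.03, with 15 of 32 positive. The genotype by AngII interaction left none called by edgeR (0.0188% of all genes), DESeq2 (0.607%) or limma voom (1.08%). All 31 interaction estimates were negative, with a median of -1.18, and 12 of 31 had an unadjusted p under 0.05 beside 11.2% of all genes in either direction. Without both KO saline replicate 1 and KO AngII replicate 4 this was 0 of 31, with a median of -0.86. With the mean brown adipocyte marker level as a covariate it was 1 of 31, with a median of -0.60 and 2 positive estimates. The shares of all genes at that p in these alternative fits are not given here. These comparisons share groups with those above, so their values are not separate evidence.

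The make-up of the mitochondrial reads was compared as well. Complex I mRNAs took 42.6% ± 0.995 of mitochondrial reads in KO saline against 39.4% ± 0.46 in KO AngII. For complex IV mRNAs these were 34.3% ± 1.59 and 39.0% ± 0.65 (SD, n = 4). For WT the values were 41.3% ± 1.67 (saline) and 39.6% ± 0.60 (AngII) for complex I, and 35.5% ± 1.18 and 36.9% ± 0.59 for complex IV. Both differences within KO, and those of complex III (17.7 against 19.0%) and complex IV between KO AngII and WT AngII, reached an exact permutation p = 0.0286 but 0.200 after adjustment over 28 tests. No part passed after adjustment, which at the smallest p that 4 against 4 allow needs most of the 28 tests to reach it. These shares also rest on how reads are split with nuclear copies. With the copies' reads added, complex V in KO saline went from 1.95 to 2.83%, and complex III (17.6 against 18.4%) and complex V (2.83 against 1.47%) then also reached an exact permutation p = 0.0286 between KO saline and WT saline (0.133 after adjustment). The rRNAs took 3.26% ± 1.22 (WT) and 2.70% ± 0.67 (KO) after saline, and 3.19% ± 0.11 (WT) and 2.42% ± 0.49 (KO) after AngII.

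Nuclear genes that serve the mitochondrial genome were read from lists, and edgeR called none in KO saline against WT saline or in KO AngII against KO saline. The 20 genes of mitochondrial DNA transcription and replication had a median log2 fold change of 0.42 in KO saline against WT saline, with 16 positive and 4 at an unadjusted p under 0.05, and -0.37 in KO AngII against KO saline, with 3 at that p. Over all genes 21.8% had such a p in either direction in the first comparison and 19.2% in the second. The counts of 4 of 20 and 3 of 20 did not exceed these shares in either direction. By direction, 3 of the 20 were higher and 1 lower in the first comparison, where 10.1% of all genes were higher. All 3 in the second were lower, where 7.39% of all genes were lower. Read by direction, 3 of 20 thus lay above the share of all genes in both. Polg, the replicating polymerase, stood at 42.6 CPM in WT saline, 41.2 in KO saline and 44 in the KO AngII group, as means. Mrpl12, a mitoribosomal protein that also binds the mitochondrial RNA polymerase, stood at 80.5, 140 and 78.4 CPM in the same groups. The 21 genes of mitochondrial RNA processing and decay had medians of 0.26 and -0.16, with 0 and 3 at an unadjusted p under 0.05. Both counts were below the shares in either direction, but the 3 were all lower, above the 7.39% of all genes that were lower. Grsf1, an RNA-binding protein of mitochondrial RNA granules, stood at 69, 98.2 and 85.8 CPM, and the exonuclease gene Rexo2 at 110, 107 and 118 CPM. The 12 biogenesis regulators had medians of -0.10 and -0.08, with 2 and 1 at an unadjusted p under 0.05, again below the shares in either direction. Of these, the 2 in the first comparison were lower and the 1 in the second was higher. Yy1, a transcription factor, stood at 91.6, 87.9 and 92.6 CPM, and Esrra, a nuclear receptor of energy metabolism, at 68, 111 and 70.1 CPM. Of the 53 genes tested in these 3 lists, DESeq2 called 2 lower in KO saline against WT saline, where it called 5.52% of all genes lower. In the same comparison limma voom called 5 higher and 3 lower, where it called 9.6% of all genes higher and 10.4% lower. Neither called any in KO AngII against KO saline.

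The organelle's nuclear-encoded parts had medians of the same sign as the mitochondrial genes, and smaller. The 105 nuclear subunits and assembly factors of oxidative phosphorylation had a median of 0.75 in KO saline against WT saline, with 101 positive and 17 higher at an unadjusted p under 0.05, and -0.68 in KO AngII against KO saline, with 18 lower. Over all genes 10.1% were higher at that p in the first comparison and 7.39% lower in the second. The 77 mitoribosomal proteins had medians of 0.49 and -0.47, with 75 positive in the first, and 19 higher in the first and 19 lower in the second at an unadjusted p under 0.05. Mrpl42, of the large subunit, stood at 66, 92.3 and 63 CPM in WT saline, KO saline and KO AngII. The 21 genes of mitochondrial mass and import had medians of 0.47 and -0.30, with 21 positive in the first, 3 higher at that p in the first and 0 in the second. Among these, Cs (citrate synthase) stood at 511, 844 and 607 CPM and Hspa9, the matrix chaperone, at 433, 610 and 522 CPM. In KO saline against WT saline DESeq2 called 3 of 105, 1 of 77 and 0 of 21 genes of these lists higher, beside 3.0% of all genes. There limma voom called 11, 12 and 6 higher, beside 9.6%. In KO AngII against KO saline DESeq2 called 3, 2 and 0 lower, beside 1.57%, and limma voom 1, 1 and 0, beside 1.63%. One list member was called in KO AngII against WT AngII: Ndufa4l2, a relative of a complex IV subunit, fell by 0.94 on the log2 scale (SE 0.22, edgeR adjusted p = 0.0432), from 34.6 ± 11.9 to 18 ± 2.29 CPM (SD, n = 4). It was called under 14 of 28 alternatives, and not without WT AngII replicate 4 (-0.73, edgeR adjusted p = 0.156) or by limma voom (-0.64, adjusted p = 0.141). The median of all genes was 0.05 in the first comparison and 0.02 in the second.

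Markers of fat and muscle were read beside the mitochondrial share. The summed level of 8 brown adipocyte markers was 9158, 2276, 3402 and 1971 CPM in KO saline, 696, 5589, 2266 and 516 in WT saline, 3774, 968, 1420 and 662 in KO AngII, and 2622, 3477, 1067 and 1529 in WT AngII, with no marker at 0. Within each group the library with the highest sum was replicate 1 or 2, and it also had the highest mitochondrial share. WT saline replicate 2 exceeded 3 of the 4 KO saline libraries in this sum while its mitochondrial share was 17.7%, below all 4. General adipocyte markers summed to 4564 to 11250 CPM in KO saline and 1450 to 8303 in WT saline. Smooth muscle markers summed to 8257 to 10867 CPM in KO saline, 7476 to 20272 in WT saline, 5341 to 15776 in KO AngII and 11238 to 16719 in WT AngII. With the mean brown adipocyte marker level as a covariate in the fit, 5 members were called higher in KO saline than in WT saline (1.05% of all genes). The members' median log2 fold change was then 1.07, and -0.74 in KO AngII against KO saline. Without the covariate these medians were 1.43 and -1.26. Fibroblast markers summed to 2357 to 3518 CPM in KO saline, below the 3608 to 6745 of WT saline, and to 2391 to 4027 in KO AngII and 5152 to 14860 in WT AngII. Neuron and chromaffin markers summed to 35.7 to 125 CPM in KO saline, above the 8.78 to 34.6 of WT saline. No marker of these 2 lists was at 0 in either saline group. Skeletal muscle markers stood at 597 CPM in KO saline replicate 3, the KO saline library with the lowest mitochondrial share, and at 24.6 or less elsewhere. The part of fat cells, fibroblasts, nerve cells and muscle cells in the mitochondrial share was not tested.

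**Figure D5:**
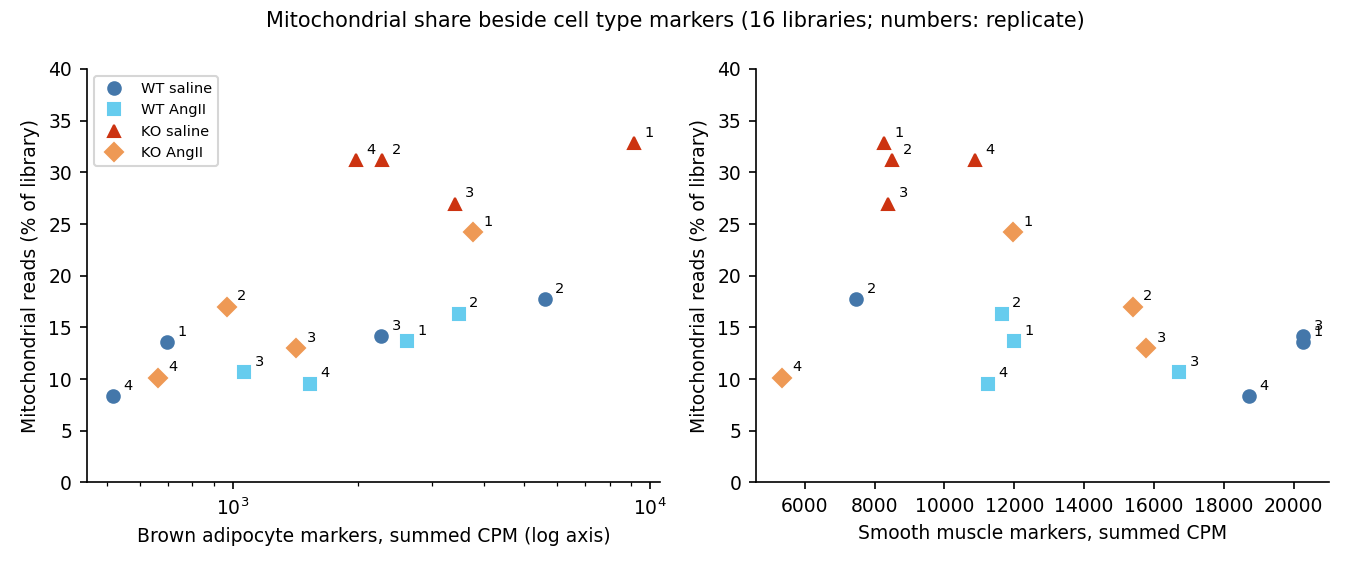
Mitochondrial share of reads (%) against the summed CPM of brown adipocyte markers (left, log axis) and smooth muscle markers (right) in 16 libraries, with the replicate number at each point. KO saline libraries lie at 27.0 to 32.8% across brown adipocyte sums of 1971 to 9158 CPM, which overlap those of WT saline (516 to 5589 CPM).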

How the data were processed

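Sequencing of poly-A enriched RNA gave 1 library per sample. The deposited table holds raw counts, which the authors made by assigning reads to genes and did not scale. The submitters' processing notes name HISAT2 2.0.5, featureCounts 1.5.0-p3, DESeq2 1.20.0 and the build GRCm39. For annotation release, strand setting and reads matching several sites, nothing was given in the sources used here; antisense and copied genes are limited by this. Gene structure, sequences and copies came from GENCODE M21 (GRCm38, another build), so no coordinates are printed. Copies were found with blastn 2.17.0 (at least 95% identity over 100 bases). Any match on a single further chromosome was then left out. The number of copies, the coverage and the sums with copies therefore describe only those kept.

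From the counts, edgeR 4.0.16 (R 4.3.3) kept 15984 genes with its default filter, removed 13711, and fitted all 16 libraries with TMM scaling and 1 coefficient for each group (residual degrees of freedom 12). Called genes are those whose p, adjusted by Benjamini-Hochberg across every gene tested, was under 0.05. Shares were set against each other with exact permutation tests over libraries, two-sided. The edgeR steps were tested on simulated data for KO saline against WT saline, with 50 genes changed at each fold. Of 4-fold changes 100% (higher) and 96% (lower) were called, but of 2-fold changes only 14% (higher) and 24% (lower). False calls were 4.1% of all calls. The simulation gave every gene the same spread between libraries, which the members need not share. Of the 5 copied mRNAs, with log2 fold changes of 2.15 to 2.48 in this comparison, only 2 were called. A gene that was not called may therefore still differ 2-fold, or more where its libraries are widely spread. Alternatives were other scalings and filters, DESeq2 1.42.0, limma voom 3.58.1, only the groups compared, a replicate block, a brown adipocyte covariate, libraries left out and, added after the data were seen, copies counted with their genes.

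All mitochondrial genes were accounted for, mRNAs and rRNAs by library and the 3 tRNAs with most reads; from each nuclear list, called genes or else the 2 with the highest mean level were named. mt-Ts1, mt-Ti and the copies were named after their values were seen. The members and lists were chosen with earlier results of these data known.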

Additional observations from a re-analysis of the deposited data

Results flagged for a closer look

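Within groups of 4, single libraries of 8 of the 104 group values tested (7.69%, where chance flags about 5%) lay far from the other 3. In the library labelled KO saline replicate 1 these were mt-Co2 (14210 CPM), mt-Atp6 (15753 CPM), mt-Co3 (19157 CPM), mt-Rnr1 (6891 CPM) and mt-Rnr2 (9183 CPM), all high. In KO saline replicate 3, mt-Co1 was low (89959 CPM). In WT AngII replicate 2, mt-Co2 was high (2522 CPM). In WT saline replicate 3, complex IV mRNAs took a low share of mitochondrial reads (33.7%). mt-Td, the aspartate tRNA gene whose row has no symbol and which entered no comparison, held at most 4 reads in a library, just above the limit of 3 that a count of 0 allows; its 6 reads came from 2 KO saline libraries.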

How the results depend on the processing

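All tested members were higher in KO saline than in WT saline under all 28 alternatives, and all were lower in KO AngII than in KO saline under 26 of 28; the exceptions were the fit without a filter, which gave mt-Tv 0.94 (edgeR adjusted p = 0.712), and the brown adipocyte covariate, which turned mt-Tc to 0.068 (adjusted p = 0.952) and mt-Ty to 0.0057 (adjusted p = 0.998). The count of 8 called higher (1.23% of all genes) became 13 with total count scaling (1.05%), 4 with no filter (0.394%, members' median 1.37), 20 by DESeq2 (3.0%), 30 by limma voom (9.6%), 0 in a fit of only the 2 groups (0.639%, median 1.42), 5 with the covariate (1.05%), 4 without KO saline replicate 1 and KO AngII replicate 4 (1.14%), and 0 to 26 with single libraries left out. The count of 0 in KO AngII against KO saline became 15 by DESeq2 and 8 by limma voom, and 0 to 1 with single libraries left out. In the other 3 comparisons it was 0 under every alternative run. Total count scaling moved the median of all genes to -0.28, 0.29 and 0.35 in KO saline against WT saline, KO AngII against KO saline and the interaction, and the calls over all genes in the first from 197 higher and 284 lower to 168 and 2201; members there stood at medians of 1.11, -1 and -0.87. Same-numbered libraries showed no common deviation (correlations -0.423 to 0.442, 8 of 24 over 0.1, 3 of 16 libraries closest to their own number). With 4 libraries per group this cannot exclude that the numbers pair them. With the replicate number as a block 15 members (1.16% of all genes) were called higher in KO saline and 1 (mt-Atp8, 0.0876%) lower in KO AngII than in KO saline. The shares then differed by 17.1 and -14.4 percentage points (exact permutation p = 0.125, the smallest possible). Leaving out single libraries, the share difference ran from 15.4 to 18.5 percentage points (KO saline against WT saline), -17.1 to -12.4 (KO AngII against KO saline), 0.819 to 5.52 (KO AngII against WT AngII) and -2.59 to 0.545 (AngII in WT, the value is 0.545 when WT saline replicate 2 is dropped and 0.114 when WT AngII replicate 4 is). Without both libraries the shares differed by 16.3 (exact permutation p = 0.0571) and -11.7 (p = 0.1). These designs cannot reach p under 0.05. The cause of these shifts was not tested. Depth limited the tRNAs, of which 4 were too low to test.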

Other observations

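Among the nuclear genes whose log2 level over the 16 libraries was most like the mitochondrial to nuclear ratio, out of 10081 ranked, were Prkab1, a subunit of the energy sensor AMPK (Pearson r 0.921), Acot2, a mitochondrial acyl-CoA thioesterase (0.920), Atp5j, a subunit of ATP synthase (0.912), and Ly6c1, a surface protein of endothelial and immune cells (0.910). These correlations describe 16 libraries that share groups and scaling, and they carry no test. Ly6c1 per 1000000 non-mitochondrial reads stood at 307 ± 15 in KO saline and 142 ± 21.4 in WT saline, 131 ± 23.2 in WT AngII and 148 ± 20.7 in KO AngII (SD, n = 4).

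In the library labelled KO saline replicate 1, mt-Nd5 took 4.84% of mitochondrial reads, against 6.93 to 9.82% in the other 15 libraries, and mt-Co1 took 24.7%, against 31.2 to 37.1%. The same library had the highest shares of mt-Atp6 (3.44%) and mt-Co3 (4.18%), both genes with a full-length nuclear copy.

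AY036118, from the list read for carry-over of ribosomal RNA, fell by 2.29 on the log2 scale in KO AngII against KO saline (SE 0.27, edgeR adjusted p = 0.00179) and by 2.03 in KO AngII against WT AngII (SE 0.27, adjusted p = 0.000943). It stood at 16.2, 13.4, 18 and 15.9 CPM in KO AngII and at 43.8 CPM or more in each of the other 12 libraries.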
